A study of Mus musculus with 12 samples.

Results

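The respiratory chain genes were taken as every gene of the deposited table whose symbol begins with Nduf followed by a letter a, b, c, s or v and a digit, the 4 Sdh genes, symbols beginning with Uqcr, Cox4 to Cox8 or Atp5, and the 13 protein genes of mitochondrial DNA, which the table writes in upper case. This rule used names and no measured values. It found 103 of 18180 genes, 13 encoded by mitochondrial DNA (mtDNA) and 90 encoded in the nucleus. By complex, 47 genes belonged to complex I, 4 to complex II, 9 to complex III, 21 to complex IV and 22 to complex V. *Ndufa4* and *Ndufa4l2* were counted with complex IV, where the *Ndufa4* protein is known to sit. Of the nuclear genes, 7 carry a symbol ending in -ps, the mark of a pseudogene, and were kept apart from the other 83. *Ndufb4*, *Ndufb4b* and *Ndufb4c*, and likewise *Cox6c* and *Cox6c2*, are near copies whose reads can be split between them, so their values are uncertain.

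The respiratory chain passes electrons from NADH and succinate to oxygen and stores the energy as a proton gradient, which ATP synthase (complex V) uses to make ATP. Complexes I, III, IV and V are built from subunits of both genomes, whereas complex II is wholly nuclear encoded. mtDNA is transcribed as long precursor RNAs from both strands and cut into single messages, and the transcription factors NRF1, GABP (of the ETS family) and YY1 are known regulators of nuclear subunit genes. Several complex IV subunits have tissue-specific isoforms, among them *Cox6a2* of heart and skeletal muscle and *Cox4i2*, known from lung and from brain pericytes.

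Glioblastoma (GBM) arose in mice that lacked *Cdkn2a* in all cells, on a mixed background of C57Bl/6J, 129S4, FVBN/J and Balb/cJ, to which the study's methods add SJL. Their brains received an injection of Cre lentivirus that switched on conditional human EGFR and a luciferase reporter, and all 4 groups carried the same changes. From end-stage tumors, EGFR+ cells were stained for PDGFRA or for galectin-1 (GAL1, the product of *Lgals1*) and sorted as PDGFRA+, PDGFRA-, GAL1+ or GAL1-, and the study's text describes the PDGFRA+ and GAL1+ sorts as also negative for CD45. Each sort was sequenced from the same 3 tumors (T3, T4 and T5), giving 12 libraries. Per the study's methods the mice were adults of both sexes, and the age and sex of each tumor's mouse were not given for these samples. The sorts share tumors, so a cell may lie in a gate of each stain.

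Library sizes recovered from the values ran from 21728280 to 24117541 reads in GAL1- cells, from 13788453 to 17486645 in GAL1+, from 9851175 to 16516049 in PDGFRA- and from 10768492 to 18522549 in PDGFRA+. Recovered reads per library ran from 338 (*ND3*) to 67396 (*COX1*) among mtDNA genes and from 4 (*Cox6a2*) to 14319 (*Atp5a1*) among the 83 nuclear genes, of which 71 held at least 100 reads in every library. *Lgals1* was 1.29 higher on the log2 scale in GAL1+ than in GAL1- cells (limma adjusted p = 0.000967) and *Pdgfra* was 2.97 lower (log2 fold change -2.97, limma adjusted p = 0.000258). *Ptprc*, the gene of CD45, was present in every sort and 4.04 higher (log2) in GAL1+ than in GAL1- cells (limma adjusted p = 4.77e-05). The study's results call the PDGFRA+ and GAL1+ sorts CD45-. Its methods for these sorts name stains of EGFR, PDGFR and galectin-1 and none of CD45, so whether leukocytes were gated out is not settled.

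Levels are given as log2 CPM, a gene's reads per 1e+06 reads of a library size that the authors had rescaled by a factor per library (TMM). The rescaled size was 1.088 to 1.155 times the recovered reads in GAL1- and 0.841 to 0.974 times in GAL1+ libraries. Differences are given as log2 fold changes from a limma fit that kept the tumor as a block. A gene is said to have risen or fallen where its Benjamini-Hochberg adjusted p over all 18180 genes was under 0.05. Because these are bulk samples, fewer cells that express a gene and less RNA of it per cell cannot be told apart.

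The 13 mtDNA genes took a larger share of the total than the 83 nuclear genes did in each of the 12 libraries. Their summed CPM was 0.905% of the library total in tumor T3, 0.938% in T4 and 0.953% in T5 in GAL1- cells, and 0.997%, 0.854% and 1.38% in GAL1+ cells. The same shares were 1.35%, 0.932% and 0.936% in PDGFRA- cells and 1.28%, 0.792% and 0.938% in PDGFRA+ cells. The GAL1- libraries lay close together (0.932% ± 0.0246, SD, n = 3 tumors), and the other sorts spread around them, with the GAL1+ library of T5 the highest of the 12 (GAL1+ 1.08% ± 0.271, PDGFRA- 1.07% ± 0.243, SD, n = 3 each). All 4 sorts therefore overlapped in this share, and no test was run on it. As a ratio to nuclear reads, the PDGFRA- library of T3 stood at 1.62% and the GAL1+ library of T5 at 1.61%. With mitochondrial rRNA left out of the total they stood at 1.59% and 1.58%, so which library was highest depended on the total used.

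The 83 nuclear genes summed to between 0.343% (PDGFRA-, T4) and 0.579% (GAL1-, T3). T3 was the highest tumor in every sort, at 0.579%, 0.508%, 0.556% and 0.530% in GAL1-, GAL1+, PDGFRA- and PDGFRA+ cells. The ratio of mtDNA to nuclear messages was 1.93 ± 0.332 in GAL1-, 2.51 ± 0.794 in GAL1+, 2.55 ± 0.149 in PDGFRA- and 2.10 ± 0.340 in PDGFRA+ cells (SD, n = 3 tumors). The 2 mitochondrial ribosomal RNAs, which are no members, took 8.44% to 15.1% of the total, the lowest share in the PDGFRA+ and the highest in the PDGFRA- sort.

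**Figure D1:**
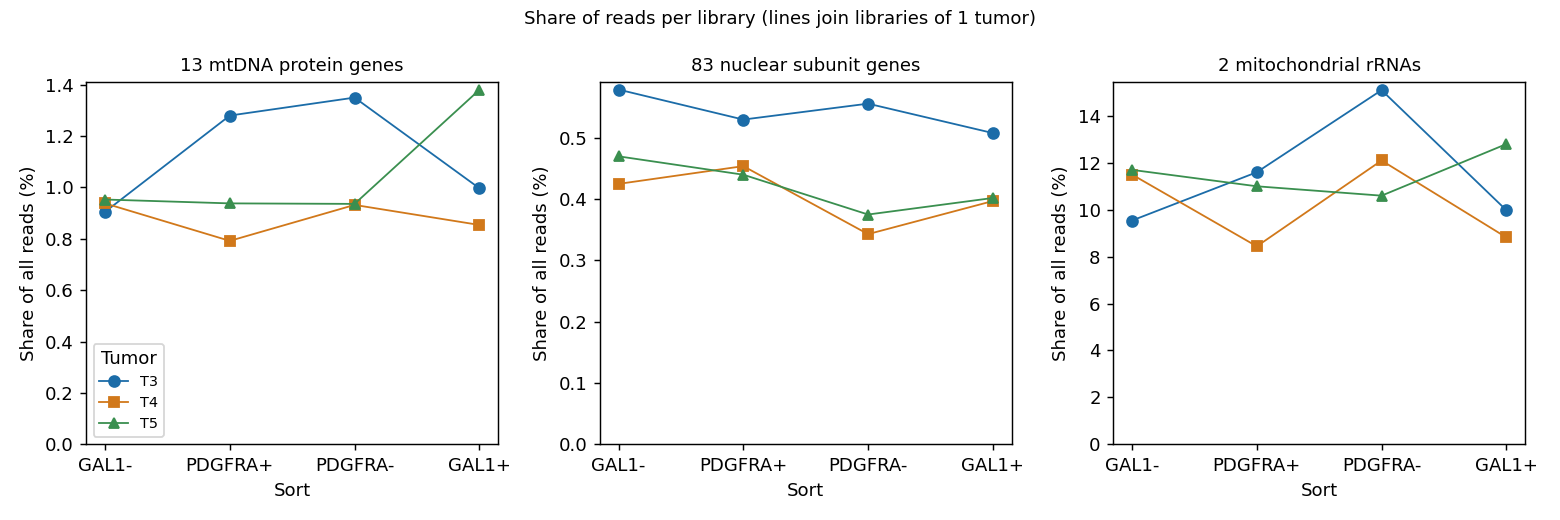
Share of the summed CPM of each library (percent, vertical axis) taken by the 13 mtDNA protein genes, the 83 nuclear subunit genes and the 2 mitochondrial rRNAs, with 1 point per tumor in each of the 4 sorts and lines joining the libraries of 1 tumor. The mtDNA share was tightest in GAL1- cells (0.905% to 0.953%), and the GAL1+ library of T5 stood highest at 1.38%.

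In both PDGFRA sorts T3 was most often the highest tumor and T4 the lowest for mtDNA and for nuclear genes, while in the GAL1 sorts the highest tumor differed between the 2 sets. All 13 mtDNA genes were highest in T5 within the GAL1+ sort, and for 12 of them that library was the highest of all 12. Within the PDGFRA+ sort all 13 were highest in T3 and lowest in T4, and in PDGFRA- cells 12 were highest in T3 and 11 lowest in T4. Among GAL1- libraries 8 were highest in T5 and 10 lowest in T3. Of the 83 nuclear genes, 68 were highest in T3 among GAL1- libraries, 51 among GAL1+, 74 among PDGFRA- and 52 among PDGFRA+ libraries. T4 was the lowest tumor for 69, 59, 68 and 48 of them in the same order of sorts. As medians over the genes, mtDNA messages deviated from their mean over libraries by 0.79 (log2) in the GAL1+ library of T5, against -0.39 in the GAL1- library of T3.

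**Figure D2:**
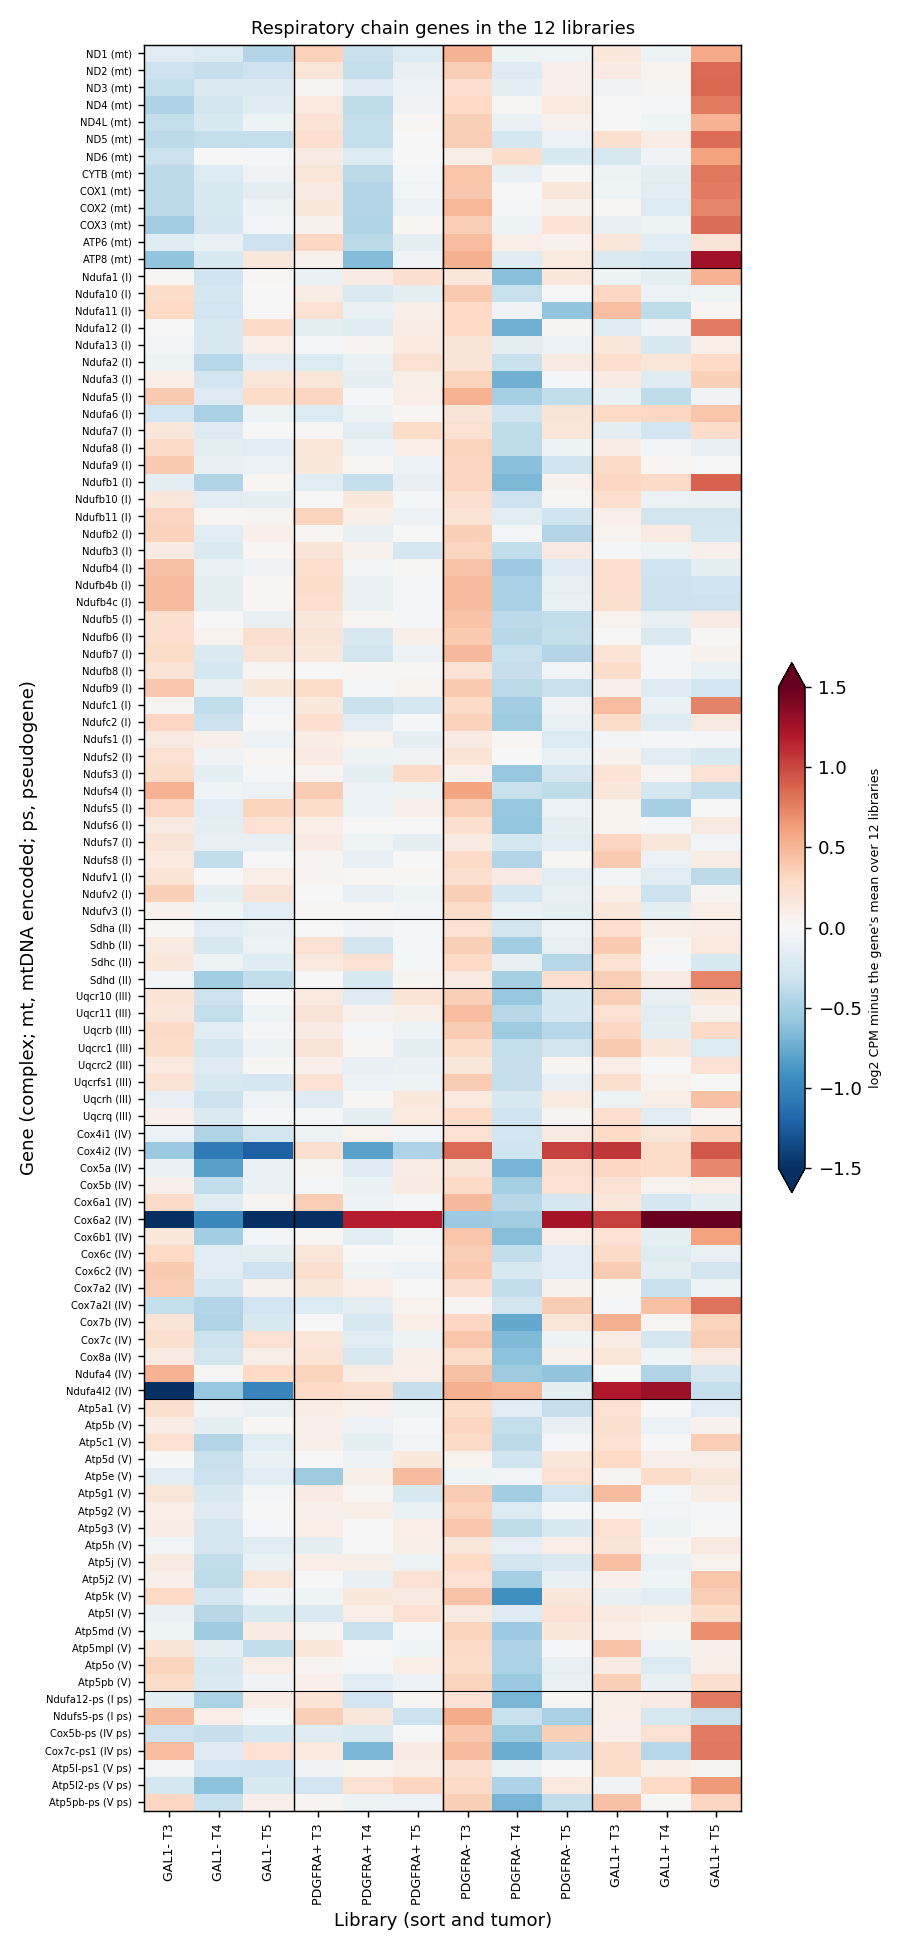
Heat map of the 103 respiratory chain genes (rows, ordered by genome and complex) in 12 libraries (columns, by sort and tumor), where colour is log2 CPM minus the gene's mean over libraries, limited to 1.5 either way. The mtDNA rows are highest in the GAL1+ library of T5 for 12 of 13 genes, and many nuclear rows are highest in T3 and lowest in T4.

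Between GAL1+ and GAL1- cells, 22 of 103 respiratory chain genes passed the test (21.4%), 19 higher and 3 lower in GAL1+ cells, where 58.2% of all genes passed, 28.9% higher and 29.3% lower. The median log2 fold change was 0.16 over the members and -0.03 over all genes. It was 0.48 for the 13 mtDNA genes and 0.10 for the 83 nuclear genes. The direction depended on the scaling, with 6 genes higher and 21 lower of 27 called when libraries were scaled to their summed CPM, which moved the median of all genes to -0.33, and 11 higher and 7 lower of 18 after quantile normalization. By complex, the calls were 8 of 16 nuclear genes of complex IV, 6 of 38 of complex I, 1 of 4 of complex II, none of 8 of complex III and 2 of 17 of complex V.

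Markers of cells other than tumor cells moved with the same contrast, up for some cell types and down for others. Of the pan-leukocyte markers 12 of 12 were higher in GAL1+ cells, with summed CPM of 2810 to 3980 against 96.5 to 254 in GAL1- cells, as were 12 of 12 macrophage and monocyte markers (5720 to 7210 against 89.8 to 219) and 10 of 10 microglia markers. Endothelial markers were higher for 10 of 10 (322 to 404 against 42.7 to 93.5) and pericyte and mural markers for 9 of 10 (294 to 355 against 33.9 to 60.6). The 10 oligodendrocyte lineage and tumor markers were all lower (656 to 2040 against 5420 to 6700). Mature oligodendrocyte markers were called lower for 8 of 8, neuron markers for 4 of 7 and astrocyte markers for 4 of 8. Neutrophil markers were called higher for 4 of 7, T and NK cell markers for 2 of 9 and erythroid markers for 1 of 5. No marker of these lists was at or under 3 reads in every library of a sort. The part of these cells in the differences below was not tested.

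Of the mtDNA genes, *ND2*, *ND3*, *ND4* and *ND5*, which encode membrane-arm core subunits of complex I, rose in GAL1+ cells. In log2 CPM, *ND5* lay at 9.77, 9.80 and 9.81 in GAL1- cells of T3, T4 and T5 and at 10.40, 10.27 and 11.00 in GAL1+ cells. Every GAL1+ library was thus above every GAL1- library, and the log2 fold change was 0.76 (SE 0.20, limma adjusted p = 0.0079). *ND2* lay at 8.25, 8.22 and 8.25 in GAL1- and at 8.68, 8.61 and 9.41 in GAL1+ cells (log2 fold change 0.66, SE 0.19, limma adjusted p = 0.0148). These groups did not overlap either, and the gap in T5 was by far the widest.

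*ND4* had a log2 fold change of 0.56 (SE 0.20, limma adjusted p = 0.0332) and *ND3* of 0.54 (SE 0.20, limma adjusted p = 0.0405). The 9 mtDNA genes that did not pass had log2 fold changes of 0.22 to 0.49, among them the catalytic subunits of complex IV, *COX1* (0.45), *COX2* (0.43) and *COX3* (0.49), cytochrome b of complex III (*CYTB*, 0.40) and the ATP synthase genes *ATP6* (0.27) and *ATP8* (0.48). *ND1* (0.49), *ND4L* (0.37) and *ND6* (0.22), also of complex I, did not pass, with limma adjusted p of 0.0548, 0.0809 and 0.404. *ND6* is the one protein gene on the opposite strand of mtDNA. Of the 13 genes, 10 were higher in GAL1+ cells in all 3 tumors, as were 6887 of all 18180 genes. All 13 fold changes were above 0 in the fit as deposited, 11 after scaling to summed CPM and 8 after quantile normalization, and neither of these scalings called any mtDNA gene.

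This difference leaned on 1 library. Relative to all genes, the median of the 13 came to 0.39 for T3, 0.16 for T4 and 0.94 for T5. Without the GAL1+ library of T5 the median log2 fold change was 0.22, 12 genes stayed above 0, and *ND5* alone passed (0.54, limma adjusted p = 0.036), while *ND2* had 0.40 (limma adjusted p = 0.0579), *ND4* 0.32 and *ND3* 0.26. Without the tumor block *ND5* and *ND2* passed, with limma adjusted p of 0.0211 and 0.0364, whereas *ND4* (0.0661) and *ND3* (0.0653) did not. The 2 mitochondrial rRNAs had log2 fold changes of 0.09 and 0.31 and were not called.

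**Figure D3:**
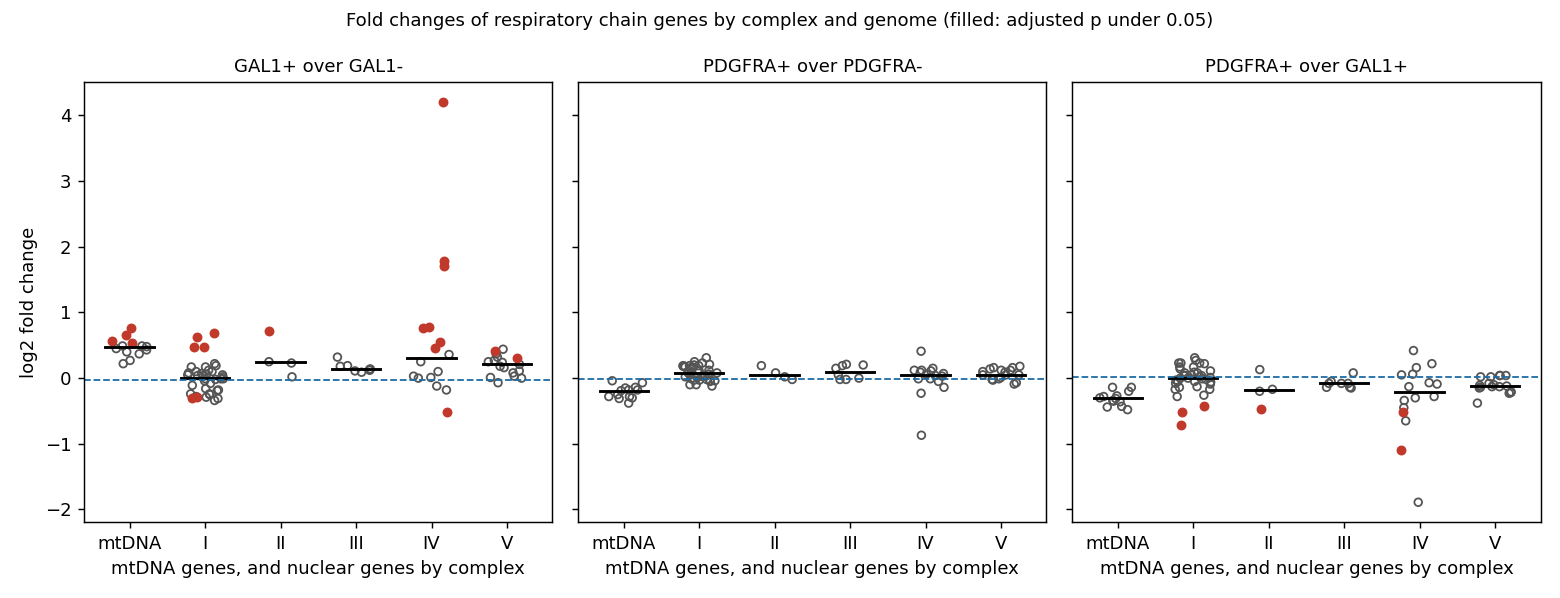
Log2 fold changes (vertical axis) of the 13 mtDNA genes and of the 83 nuclear genes by complex (horizontal axis), in 3 panels for GAL1+ over GAL1-, PDGFRA+ over PDGFRA- and PDGFRA+ over GAL1+ cells, where filled red points passed an adjusted p of 0.05, black bars are medians and the dashed line is the median of all genes. In the first panel the mtDNA genes all lie above 0 (11 of 13 do after scaling to summed CPM and 8 after quantile normalization) and complex IV holds the points farthest from 0; the middle panel has no red point.

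Complex II, which oxidises succinate and is also an enzyme of the citric acid cycle, had 1 gene that rose. *Sdhd*, a membrane anchor subunit, was at 4.94, 4.46 and 4.61 log2 CPM in GAL1- cells and at 5.35, 5.11 and 5.71 in GAL1+ cells of T3, T4 and T5. The groups did not overlap, and the log2 fold change was 0.72 (SE 0.15, limma adjusted p = 0.00265). The other anchor, *Sdhc*, had a log2 fold change of 0.02 with a 95% interval of -0.26 to 0.30. *Sdha*, the flavoprotein, had 0.23 (limma adjusted p = 0.0817), and *Sdhb*, the iron-sulfur subunit, had 0.25 (limma adjusted p = 0.0964), both above 0 in all 3 tumors. Under scaling to summed CPM *Sdha*, *Sdhb* and *Sdhc* had values below 0 (-0.06, -0.05 and -0.27), while *Sdhd* stayed higher and past the threshold under each of the 16 alternatives.

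Complex IV, the terminal oxidase, held the largest changes of any complex in this contrast, in 3 genes that all had few reads. *Cox6a2*, the muscle isoform of subunit 6a, was at -2.10, -0.45 and -2.46 log2 CPM in GAL1- cells (6, 17 and 4 reads) and at 1.54, 2.91 and 3.13 in GAL1+ cells (49, 94 and 108 reads). The groups were apart by several log2 units in each tumor, with a log2 fold change of 4.20 (SE 0.70, limma adjusted p = 0.000726). *Cox4i2* was at 0.71, 0.20 and 0.04 in GAL1- cells (45, 27 and 25 reads) and at 2.33, 1.54 and 2.19 in GAL1+ cells (85, 36 and 56 reads), a log2 fold change of 1.70 (SE 0.29, limma adjusted p = 0.000806).

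*Ndufa4l2*, a paralog of *Ndufa4* known to be induced by hypoxia-inducible factor and to be a pericyte transcript, was at -1.55, -0.45 and -0.87 in GAL1- cells (9, 17 and 13 reads) and at 1.32, 1.41 and -0.24 in GAL1+ cells (42, 33 and 10 reads). The T5 pair was the closest, and the log2 fold change was 1.79 (SE 0.42, limma adjusted p = 0.00483). Without tumor T3 it was 1.25 and no longer passed (limma adjusted p = 0.0815). *Cox4i2* is, like *Ndufa4l2*, known from brain pericytes, and the mural markers given above were higher in the same libraries. In PDGFRA- against GAL1- cells 8 of 10 mural markers were called higher, as were both genes. In PDGFRA+ against GAL1- cells 7 of 10 mural markers were called higher and neither gene was (*Cox4i2* 0.60, limma adjusted p = 0.337, *Ndufa4l2* 1.14, 0.17). A part of mural cells in the values of these genes was not tested. *Cox6a2* and *Cox4i2* passed under each of the 15 alternatives that kept them in the table.

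Of the broadly expressed partners of these isoforms, 1 rose, 1 fell and 1 was not called. *Cox4i1* rose from 7.07, 6.71 and 6.88 log2 CPM in GAL1- cells to 7.46, 7.34 and 7.50 in GAL1+ cells (log2 fold change 0.55, SE 0.13, limma adjusted p = 0.00515). *Cox6a1* was at 6.08, 5.61 and 5.84 in GAL1- and 5.97, 5.54 and 5.66 in GAL1+ cells, and its log2 fold change of -0.12 (95% interval -0.39 to 0.16) did not pass. *Ndufa4*, an accessory subunit of complex IV, fell from 5.44, 4.93 and 5.22 to 4.92, 4.46 and 4.67, a log2 fold change of -0.51 (SE 0.17, limma adjusted p = 0.0277). The fall of *Ndufa4* had nearly the same size in each tumor (-0.52, -0.47 and -0.55). Its call was lost without the tumor block (limma adjusted p = 0.135), without T4 (0.103) and without T5 (0.088).

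*Cox7a2l*, known as a factor for the assembly of respiratory supercomplexes, rose from 5.07, 4.98 and 5.13 log2 CPM in GAL1- cells to 5.41, 5.86 and 6.24 in GAL1+ cells (log2 fold change 0.78, SE 0.16, limma adjusted p = 0.00271). The related subunit gene *Cox7a2* had a log2 fold change of -0.18 (95% interval -0.49 to 0.13). *Cox5a* and *Cox7b* also rose, by 0.77 (SE 0.17, limma adjusted p = 0.00362) and 0.46 (SE 0.16, limma adjusted p = 0.0376). *Cox5a*, which was named after its values were seen, and *Cox7a2l* passed under each of the 16 alternatives. *Cox6b1* (0.36, limma adjusted p = 0.109) and *Cox8a* (0.10, limma adjusted p = 0.51) did not pass, and *Cox6b2*, *Cox7a1* and *Cox8b* had no row in the table.

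**Figure D4:**
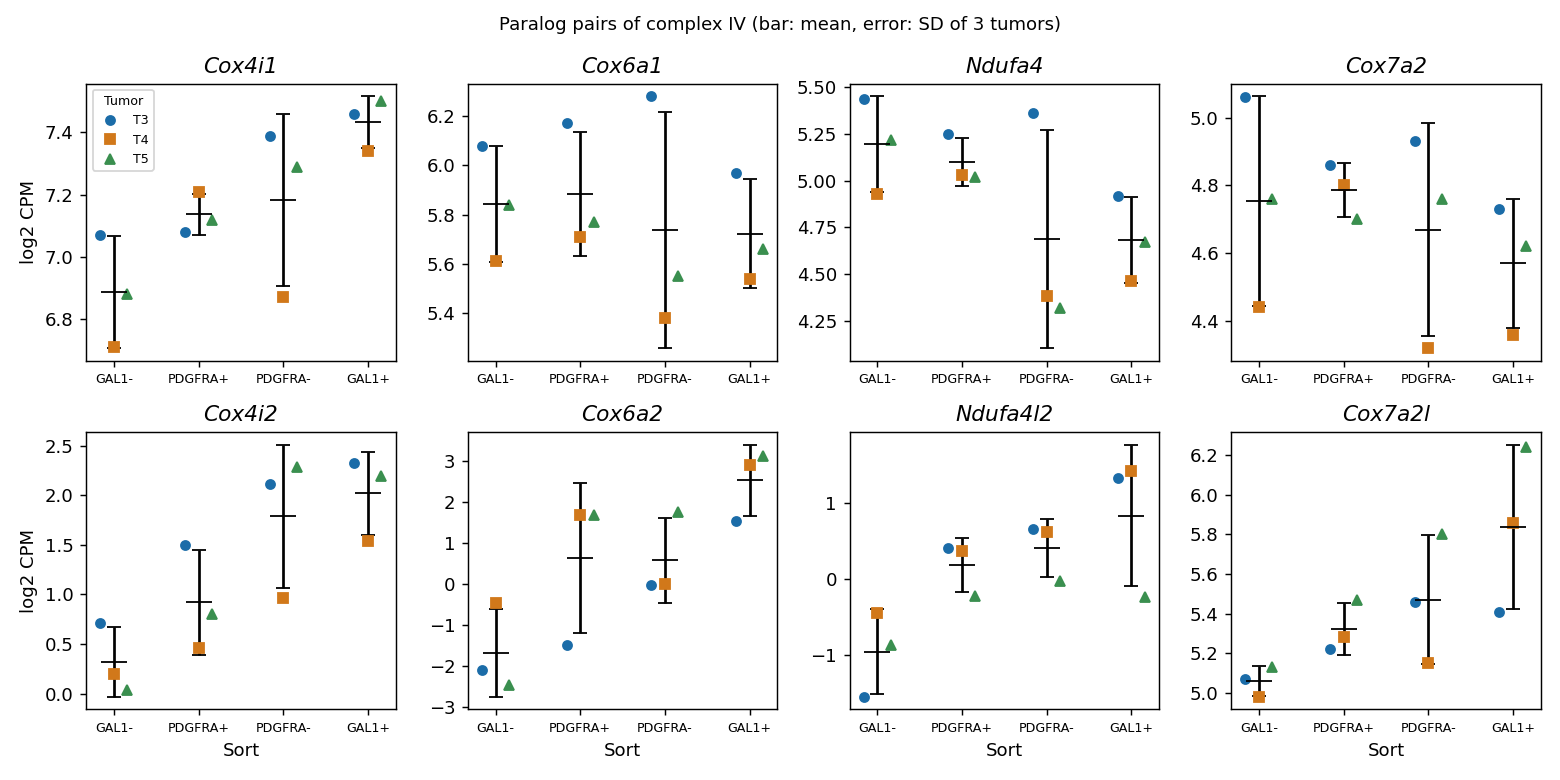
Log2 CPM (vertical axis) of Cox4i1 and Cox4i2, Cox6a1 and Cox6a2, Ndufa4 and Ndufa4l2, and Cox7a2 and Cox7a2l in the 4 sorts, with 1 point per tumor, bars at the mean and error bars of 1 SD over 3 tumors. Cox6a2 spans -2.46 to 3.13 over the libraries, while Cox6a1 stays between 5.38 and 6.28.

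In complex I, nuclear genes were called in both directions. *Ndufb1* rose from 4.11, 3.79 and 4.27 log2 CPM in GAL1- cells to 4.55, 4.53 and 5.13 in GAL1+ cells (log2 fold change 0.68, SE 0.19, limma adjusted p = 0.011). *Ndufa6* rose from 5.05, 4.85 and 5.26 to 5.64, 5.65 and 5.76 (0.63, SE 0.13, limma adjusted p = 0.00276), with no overlap between the groups. *Ndufc1* (0.48, limma adjusted p = 0.03) and *Ndufa2* (0.47, limma adjusted p = 0.016) also rose, and *Ndufa2* was named after its values were seen. All 4 are accessory subunits.

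*Ndufv1*, the core subunit that binds NADH and FMN, fell (-0.30, SE 0.12, limma adjusted p = 0.0491), from 5.91, 5.70 and 5.81 to 5.66, 5.55 and 5.31. *Ndufb11*, another accessory subunit, fell by 0.29 on the log2 scale (SE 0.10, limma adjusted p = 0.0307). The median over the 38 nuclear genes of complex I was 0.01, with 19 values above and 19 below 0. It was 0.04 relative to all genes, against 0.52 for the mtDNA genes, 7 of which encode subunits of the same complex.

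In complex III all 8 nuclear genes had values above 0, from 0.09 to 0.32, but 6 of 8 did after quantile normalization and 1 of 8 after scaling to summed CPM. None passed by limma (1 at an unadjusted p under 0.05, where 62.8% of all genes reached it), and of the alternatives run 1 called a gene of the 8, the fit without T3. The smallest limma adjusted p of the 8, 0.0738, was that of *Uqcrh*, named after its value was seen. In complex V the F1 subunit delta gene *Atp5d* (0.30, SE 0.11, limma adjusted p = 0.0437) and *Atp5l*, of subunit g, (0.41, SE 0.15, limma adjusted p = 0.0426) rose. Both calls depended on the processing, since *Atp5d* passed in 7 and *Atp5l* in 8 of 16 alternatives, and under scaling to summed CPM they had 0.01 and 0.12. *Atp5g1*, *Atp5g2* and *Atp5g3*, which encode the same mature subunit c, had 0.21, 0.01 and 0.11 and did not pass. Of the -ps symbols, 1 of 7 was called (*Cox5b-ps*, 0.67, limma adjusted p = 0.0402, named after its value was seen).

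**Figure D5:**
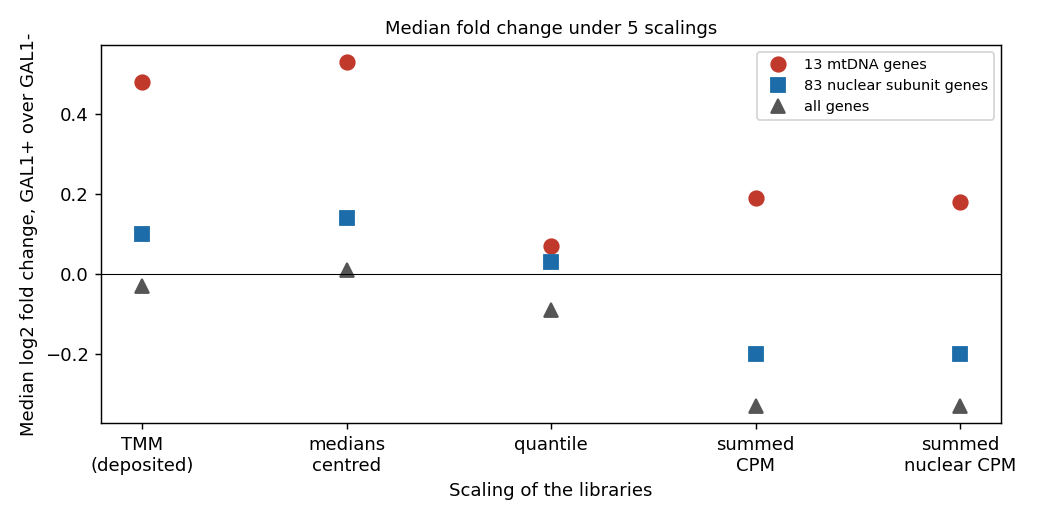
Median log2 fold change of GAL1+ over GAL1- cells (vertical axis) for the mtDNA genes, the 83 nuclear genes and all genes under 5 ways of scaling the libraries (horizontal axis). The mtDNA median stays above 0 (0.07 to 0.53), while the nuclear median is 0.10 as deposited and -0.20 after scaling to summed CPM, where the median of all genes is -0.33.

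To show what lies before the genes that moved, promoter windows of 300 bases (250 before and 50 after the start) were taken from RefSeq on GRCm38.p6, which held one for 66 of the 90 nuclear genes. Letters of the NRF1 core (GCATGCG or CGCATGC) were in 11 of 66 (16.7%) against 4.01% of the 27025 genes with a window, of the ETS site (CCGGAAG or CTTCCGG) in 17 (25.8%) against 9.93%, and of the YY1 core (AAGATGGC or GCCATCTT) in 10 (15.2%) against 3.19%. Both strands were searched, and windows were not matched on base composition. Of the 9 genes with a window that rose in GAL1+ cells, 2 held the NRF1 letters (*Atp5l* and *Ndufa6*), 2 the ETS letters (*Atp5l* and *Sdhd*) and 1 the YY1 letters (*Ndufc1*), and of the 3 that fell none held any. *Cox6a2*, *Cox4i2* and *Ndufa4l2* had no window in the table. A match describes letters and is neither a binding site nor a cause. The windows below, on the strand of the gene, are of 2 genes that rose and hold a match (in capitals), of 1 that rose and holds none, *Cox7a2l*, and of *Ndufa4*, which fell and holds none. They lie on the minus strand at chr9:50603800-50604099 (*Sdhd*), chr15:82354242-82354541 (*Ndufa6*), chr17:83514284-83514583 (*Cox7a2l*) and chr6:11907401-11907700 (*Ndufa4*).
Sdhd: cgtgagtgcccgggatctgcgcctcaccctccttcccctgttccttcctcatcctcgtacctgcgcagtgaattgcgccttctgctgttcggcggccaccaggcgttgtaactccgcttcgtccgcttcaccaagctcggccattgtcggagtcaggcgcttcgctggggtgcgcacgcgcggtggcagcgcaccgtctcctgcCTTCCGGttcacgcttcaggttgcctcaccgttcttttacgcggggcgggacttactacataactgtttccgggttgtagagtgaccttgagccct
Ndufa6: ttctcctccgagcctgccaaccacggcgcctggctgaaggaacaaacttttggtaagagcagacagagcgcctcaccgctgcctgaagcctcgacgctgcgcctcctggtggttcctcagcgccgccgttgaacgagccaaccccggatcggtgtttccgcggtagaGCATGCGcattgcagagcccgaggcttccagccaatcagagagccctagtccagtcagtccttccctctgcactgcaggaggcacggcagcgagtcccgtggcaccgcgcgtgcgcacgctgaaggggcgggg
Cox7a2l: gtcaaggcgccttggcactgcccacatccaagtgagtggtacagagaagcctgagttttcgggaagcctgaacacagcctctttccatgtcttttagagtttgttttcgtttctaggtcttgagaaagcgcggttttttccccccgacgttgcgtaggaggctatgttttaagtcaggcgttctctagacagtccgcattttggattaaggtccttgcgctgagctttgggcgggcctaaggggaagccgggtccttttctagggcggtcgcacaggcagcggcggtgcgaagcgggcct
Ndufa4: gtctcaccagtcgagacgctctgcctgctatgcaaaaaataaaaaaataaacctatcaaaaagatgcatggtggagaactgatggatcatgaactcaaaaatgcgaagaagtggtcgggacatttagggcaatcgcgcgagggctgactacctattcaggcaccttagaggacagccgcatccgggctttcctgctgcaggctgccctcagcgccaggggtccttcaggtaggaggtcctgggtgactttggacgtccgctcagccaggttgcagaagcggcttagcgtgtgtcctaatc

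Between PDGFRA+ and PDGFRA- cells no respiratory chain gene passed limma's test, 0 of 103 where 0% of all genes passed. *Pdgfra*, the gene of the stained marker, was itself not called (log2 fold change 1.6, SE 0.41, limma adjusted p = 0.249). It lay at 10.81, 10.13 and 9.95 log2 CPM in PDGFRA+ and at 10.11, 8.62 and 7.36 in PDGFRA- cells of T3, T4 and T5. GAL1- cells held it at 10.81, 10.34 and 10.49. At an unadjusted p under 0.05 there were 2 members, *Cox4i2* and *Ndufa4*, against 11.8% of all genes, and voom and vooma weights called none. *Cox4i2* was at 2.11, 0.96 and 2.29 log2 CPM in PDGFRA- and at 1.5, 0.46 and 0.80 in PDGFRA+ cells, lower in each tumor (log2 fold change -0.87, SE 0.29, limma adjusted p = 0.312). *Ndufa4* was at 5.36, 4.38 and 4.32 in PDGFRA- and at 5.25, 5.03 and 5.02 in PDGFRA+ cells (0.41, SE 0.17, limma adjusted p = 0.401), higher in T4 and T5 and not in T3.

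All 13 mtDNA genes had values below 0 in this contrast, from -0.38 to -0.04 with a median of -0.19, and 11 were below 0 in all 3 tumors (2624 of 18180 over all genes), but after quantile normalization 3 of 13 and after scaling to summed CPM 2 of 13 were above 0. The smallest limma adjusted p among them was 0.514, and the 95% intervals, which are not adjusted for the number of genes, reached a median of 0.45 to either side. Over all genes log2 fold changes ran from -3.44 to 2.8 and the smallest limma adjusted p was 0.181. Differences of 0.45 and larger ones could thus go uncalled at this number of tumors. The nuclear genes went in opposite directions in different tumors, with a median of -0.21 for T3, 0.33 for T4 and 0.07 for T5, against 0.06 in the fit. The PDGFRA- library of T4 was the lowest of all 12 for 52 of the 83 nuclear genes, and that of T3 the highest for 34. The PDGFRA- library of T4 was also the smallest of the 12 (9851175 recovered reads), and the part of library size was not tested. Such ranks were not counted over all genes.

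Between PDGFRA+ and GAL1+ cells, 6 of 103 genes passed (5.83%), all lower in PDGFRA+ cells, where 38.0% of all genes passed, 20.9% higher and 17.0% lower. This contrast uses the same GAL1+ libraries as the one above, so its values are not independent of it. The 6 were *Ndufb1* (log2 fold change -0.71, SE 0.19, limma adjusted p = 0.0164), *Cox4i2* (-1.10, SE 0.29, 0.0162), *Ndufc1* (-0.52, SE 0.17, 0.0349), *Cox7a2l* (-0.51, SE 0.16, 0.0345), *Sdhd* (-0.47, SE 0.15, 0.0356) and *Ndufa6* (-0.42, SE 0.13, 0.0324). In log2 CPM, *Sdhd* was at 4.99, 4.76 and 5.03 in PDGFRA+ cells and *Ndufa6* at 5.14, 5.27 and 5.37, each below the GAL1+ library of the same tumor.

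These 6 calls rested on few libraries. None of them passed without the tumor block, without T5 or without the GAL1+ library of T5 alone, and scaling to summed CPM, which moved the median of all genes to 0.21, called 10 members higher and 1 lower, *Cox4i2* being the one also called in the fit as deposited. Without T3 1 member and without T4 2 members passed. *Cox6a2* was at -1.47, 1.69 and 1.69 log2 CPM in PDGFRA+ cells (7, 36 and 58 reads), with a log2 fold change of -1.89 (SE 0.70, limma adjusted p = 0.0579). *Ndufa4* (0.42, limma adjusted p = 0.0818), *Cox5a* (-0.45, 0.0611) and *Ndufa4l2* (-0.65, 0.243) did not pass either.

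None of the mtDNA genes passed between PDGFRA+ and GAL1+ cells by limma, with 1 at an unadjusted p under 0.05, against 48.2% of all genes (*ND2*, -0.44, limma adjusted p = 0.0987). All 13 had fitted values below 0 (median -0.31), but 7 of 13 were above 0 after quantile normalization and 3 after scaling to summed CPM. Taken by tumor, the median was 0.17 for T3, -0.29 for T4 and -0.82 for T5, and none of the 13 had the same sign in all 3, where 12615 of all 18180 genes did. Markers called lower in PDGFRA+ than in GAL1+ cells were 12 of 12 of the pan-leukocyte list (summed CPM 659 to 1510 against 2810 to 3980), 1 of 10 of the mural list (151 to 241 against 294 to 355) and 0 of 10 of the endothelial list, with median log2 fold changes of -1.57, -0.62 and -0.41. Also called lower were 12 of 12 macrophage and monocyte, 5 of 10 microglia, 5 of 7 neutrophil and 1 of 9 T and NK cell markers. Called higher were 10 of 10 oligodendrocyte lineage and tumor markers (median 2.39), 4 of 8 astrocyte, 4 of 7 neuron and 3 of 8 mature oligodendrocyte markers. The part of these cells in the values of the members was not tested.

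The 3 remaining pairs of sorts called few members. PDGFRA- cells had higher *Cox4i2* (log2 fold change 1.47, SE 0.29, limma adjusted p = 0.00689), *Cox6a2* (2.25, SE 0.70, 0.045) and *Ndufa4l2* (1.37, SE 0.42, 0.0422) than GAL1- cells. These were 3 of 103 members (2.91%) where 23.1% of all genes passed, 16.2% higher, and 9 members reached an unadjusted p under 0.05 against 38.7% of all genes. The direction turned with the scaling, to 2 higher and 11 lower scaled to summed CPM and 2 higher and 5 lower scaled to summed nuclear CPM, and all 3 calls were lost without the block, with only these sorts fitted, without T3 and without T5. In reads, PDGFRA- libraries of T3, T4 and T5 held 72, 18 and 52 of *Cox4i2*, 16, 9 and 36 of *Cox6a2* and 26, 14 and 10 of *Ndufa4l2*. In the same contrast 12 of 12 pan-leukocyte markers (summed CPM 744 to 3200 against 96.5 to 254), 12 of 12 macrophage and monocyte markers (1110 to 5490 against 89.8 to 219), 10 of 10 endothelial (232 to 258 against 42.7 to 93.5) and 8 of 10 mural markers (208 to 319 against 33.9 to 60.6) were called higher, and their part was not tested. Microglia markers were called higher for 7 of 10 and mature oligodendrocyte markers for 3 of 8. Called lower were 4 of 10 oligodendrocyte lineage and tumor, 3 of 8 astrocyte and 5 of 8 proliferation markers. The 13 mtDNA genes had values above 0 here too, with a median of 0.40 and 11 of them higher in all 3 tumors (5687 of 18180 over all genes), while 11 were above 0 after quantile normalization and 12 after scaling to summed CPM, and none passed by limma (2 at an unadjusted p under 0.05). Whether this differs from the contrast of GAL1+ with GAL1- cells, which shares the GAL1- libraries, was not tested. PDGFRA+ against GAL1- cells called none (8.27% of all genes called, 8.26% higher, and 2 members at an unadjusted p under 0.05 against 17.3% of all genes), with *Cox6a2* at 2.31 (limma adjusted p = 0.084). There 12 of 12 pan-leukocyte, 11 of 12 macrophage and monocyte, 10 of 10 endothelial and 7 of 10 mural markers were called higher. PDGFRA- against GAL1+ cells called none (20.1% of all genes called, 6.91% lower, and 14 members at an unadjusted p under 0.05 against 36.9% of all genes), with *Ndufb1* at -0.59 (limma adjusted p = 0.0513). Called lower there were 3 of 12 pan-leukocyte, 7 of 12 macrophage and monocyte, 6 of 10 microglia, 1 of 10 endothelial and 0 of 10 mural markers. Called higher there were 8 of 8 mature oligodendrocyte, 8 of 10 oligodendrocyte lineage and tumor, 4 of 7 neuron and 2 of 8 astrocyte markers. How markers and members relate was not tested.

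Ordered by mean log2 CPM over 3 tumors, *ND5* was lowest in GAL1- (9.79 ± 0.02), then PDGFRA+ (10.13 ± 0.30) and PDGFRA- (10.17 ± 0.33), and highest in GAL1+ cells (10.56 ± 0.39, SD). *COX1* followed a like order, at 11.27 ± 0.13, 11.42 ± 0.29, 11.72 ± 0.20 and 11.72 ± 0.51. These orders are of the values as deposited. After quantile normalization *COX1* had a log2 fold change of -0.72 in GAL1+ against GAL1- and of 0.25 in PDGFRA+ against PDGFRA- cells. That of *ND5* in GAL1+ against GAL1- cells was 0.06 in the lowest of the alternatives. *Cox6a2* ran from -1.67 ± 1.07 in GAL1- through 0.58 ± 1.03 in PDGFRA- and 0.64 ± 1.82 in PDGFRA+ to 2.53 ± 0.86 in GAL1+ cells. Among these neighbours the PDGFRA+ and PDGFRA- means lay within 1 SD of each other for *ND5* and *Cox6a2*, as did the PDGFRA- and GAL1+ means for *COX1*.

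Genes that serve the chain without being subunits of it were counted in lists, in the fit as deposited alone, and other scalings were not run for them. The counts stand beside 28.9% of all genes called higher and 29.3% called lower in GAL1+ against GAL1- cells. In GAL1+ against GAL1- cells, 3 of 10 other subunits and electron carriers rose and none fell, led by *Etfa* of the electron transfer flavoprotein (log2 fold change 1.14, limma adjusted p = 0.000118). *Cyc1*, *Cycs* and *Ndufab1*, chain components that the symbol rule leaves out, had -0.15, -0.11 and -0.05. Assembly factors were called in both directions, 3 higher and 7 lower of 18 for complex I (*Dmac2* 1.00, *Ndufaf1* -1.06), 1 and 0 of 4 for complex II (*Sdhaf2* 1.00), 0 and 1 of 5 for complex III (*Bcs1l* -0.90), 3 and 2 of 25 for complex IV (*Coa5* 1.51, *Cox10* -0.58) and 0 and 1 of 5 for complex V (*Atpaf1* -0.55).

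Of 17 genes of mtDNA replication and transcription, 1 rose (*Primpol*, 0.73) and 4 fell, among them *Polg*, the mtDNA polymerase (-1.19, limma adjusted p = 0.000331), and *Tfam*, which packages and transcribes mtDNA (-0.70, limma adjusted p = 0.00228, named after its value was seen). Mitochondrial RNA processing genes had 2 higher and 2 lower of 19 (*Grsf1* 0.48, *Elac2* -0.64), and the mitochondrial ribosome 5 higher and 9 lower of 78, with a median of -0.02 (*Mrps15* 0.58, *Mrps6* -1.40). Of 11 regulators 2 rose and 1 fell, and *Nfe2l2*, a factor of the oxidative stress response, was 2.69 higher and *Ppargc1a*, a coactivator of mitochondrial biogenesis, fell by 2.27 on the log2 scale. The citric acid cycle had 5 higher and 2 lower of 18 (*Suclg2* 0.83, *Pdhx* -0.66). The cytosolic ribosome, by contrast in number, had 80 of 89 genes higher and none lower (median 0.67). Over all genes the shares for these lists were likewise 28.9% higher and 29.3% lower.

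In the same lists between PDGFRA+ and GAL1+ cells, 38.0% of all genes passed against 58.2% above, 20.9% higher and 17.0% lower. The cytosolic ribosome had the most calls, 40 of 89 lower and none higher (median -0.43). The other subunits and carriers had 0 higher and 2 lower of 10, with *Etfa* at -0.78. In complex I assembly 3 were higher and 1 lower of 18 (*Ecsit* 0.67, *Nubpl* -0.93), in complex II assembly 0 and 1 of 4 (*Sdhaf2* -0.66), in complex IV assembly 0 and 2 of 25 (*Coa5* -0.80), and in complexes III and V none of 5 each. *Polg* was 0.93 higher, among 2 higher and 0 lower of 17 mtDNA replication and transcription genes, and *Elac2* (0.42) was the 1 called of 19 RNA processing genes. Of 11 regulators 1 rose and 2 fell, *Ppargc1a* being 2 higher on the log2 scale, while *Nfe2l2* fell by 1.33. In the citric acid cycle 1 gene was higher and 4 lower of 18 (*Pdhx* 0.49, *Idh3g* -0.40), and in the mitochondrial ribosome 3 and 2 of 78 (*Mrps6* 1.07, *Mrpl13* -0.47).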

How the data were processed

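RNA of 12 sorted libraries, 3 tumors by 4 sorts, was made into libraries with the SMARTer Stranded Total RNAseq v3 Pico kit. Per the study's methods and the labels, reads were trimmed with fastp, aligned to mm39 with STAR in two-pass mode, and counted over exons with featureCounts, multi-mapping reads as fractions. Tool versions and the strand setting of the counting are not given in the sources used here. The authors deposited log2 CPM values, made with TMM scaling and voom after a filter of CPM above 1 in at least 3 samples. These log2 values, not counts, were fitted here in limma 3.58.1 (R 4.3.3) with all 4 sorts, the tumor as a block and a mean-variance trend, with 6 residual and 3.49 prior degrees of freedom and Benjamini-Hochberg adjustment at 0.05 over 18180 genes. No filter or pseudocount was added.

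Reads were recovered by reading each library's lowest value as a count of 0, to which voom adds 0.5. In each library 41.3% to 59.2% of values came out whole within 0.01, and the rest are fractions, so the count test was not used except as voom weights in an alternative. None of the 13 mtDNA genes and 9 of the 83 nuclear genes came out whole in all 12 libraries. Reads and the floor of 3 reads cover counting error only. Summed CPM per library was 865952 to 1189406, since TMM had been applied. The tumors are separate replicates, and their numbers in the labels pair the libraries. Deviations from sort means correlated within tumors (mean r 0.486, from 0.140 to 0.662, 18 pairs).

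Members, gene lists and alternatives were chosen with earlier results of these data known. Genes were named by a rule that took the 13 mtDNA genes, the Sdh genes, isoform families, and per complex, contrast and direction the 2 called nuclear genes with the largest change and the same sign in all 3 tumors, plus from each list the called gene with the largest change either way. The fit was tested on simulated data. A further item of the tumor genotype is not reported here. Alternatives changed the block, sorts fitted, trend, weights, scaling, pseudocount, filter, fold minimum and tumors, and leaving out the GAL1+ library of T5 was added after seeing the data. Promoters came from RefSeq on GRCm38.p6, another build than mm39, so no coordinates were taken from the expression files. Figures were drawn in matplotlib 3.10.9 (Python 3.11.15).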

Additional observations from a re-analysis of the deposited data

How the results depend on the processing

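The limits are 3 tumors, a scaling that moves the median of all genes, and low counts of the isoform genes. GAL1+ against GAL1- cells called 22 members, 11 without the replicate block, 11 with a fold above 1.5 required, and 7 to 15 with a tumor left out (12 without the GAL1+ library of T5). PDGFRA+ against GAL1+ cells called 6, and 0 without the block, 3 without the trend, 14 with sample medians centred, 11 scaled to summed CPM, 2 with the fold minimum and 0 to 2 with a tumor or the GAL1+ library of T5 left out. PDGFRA- against GAL1- cells called 3, and 0 without the block, 0 with only those sorts fitted, 13 (2 higher, 11 lower) scaled to summed CPM, 7 (2 higher, 5 lower) to summed nuclear CPM, 1 with a pseudocount of 1, 0 with a filter at log2 CPM 3 and 0 to 2 with a tumor left out. PDGFRA- against GAL1+ cells called 0, and 1 with only those sorts, 2 with vooma and 1 with voom weights, 3 after quantile normalization, 9 with medians centred, 2 with a pseudocount of 1, 1 with a filter at log2 CPM 1 and 2 at log2 CPM 3. PDGFRA+ against GAL1- cells called 0, and 1 with only those sorts. PDGFRA+ against PDGFRA- cells called 0 in each alternative run. The cause of these moves was not tested, except that left-out tumors leave fewer samples.

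Single-gene values under the alternatives were followed for 62 pairs of gene and contrast, not for every member. Among these pairs, signs changed for genes that had not been called. In GAL1+ against GAL1- cells, quantile normalization gave *ATP6* -0.41, *COX1* -0.72, *CYTB* -0.36, *ND1* -0.10, *ND6* -0.05, *Sdhc* -0.04 and *Cox8a* -0.04. Scaling to summed CPM gave *ATP6* -0.03, *ND6* -0.07, *Sdha* -0.06, *Sdhb* -0.05, *Sdhc* -0.27, *Cox8a* -0.19, *Atp5g1* -0.09, *Atp5g2* -0.28 and *Atp5g3* -0.18, and scaling to summed nuclear CPM gave *ATP6* -0.03, *ND6* -0.07, *Sdha* -0.07, *Sdhb* -0.05, *Sdhc* -0.28, *Cox8a* -0.20, *Atp5g1* -0.09, *Atp5g2* -0.29 and *Atp5g3* -0.19. With a tumor or the GAL1+ library of T5 left out, *Atp5g2* ran from -0.06 to 0.06 (-0.01 without that library) and *ND6* from -0.05 to 0.36. In PDGFRA+ against PDGFRA- cells, *COX1* was 0.25 after quantile normalization, and *Cox6a2* ran from -0.75 (without T4) to 0.81 with a tumor left out.

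Set medians, which had no test, moved as follows. In GAL1+ against GAL1- cells quantile normalization gave 0.07 for mtDNA, 0.03 for nuclear, 0.08 for II and 0.09 for V, centring gave 0.29 for II, and both scalings to summed CPM and to summed nuclear CPM gave -0.20 for nuclear, -0.29 for I, -0.06 for II, -0.17 for III, 0.01 for IV and -0.09 for V. Complex IV was 0.10 with a filter at log2 CPM 3, and V was 0.15 to 0.25 with a tumor left out. In PDGFRA+ against PDGFRA- cells mtDNA was -0.06 scaled to summed CPM. In PDGFRA+ against GAL1+ cells quantile normalization gave -0.07 for I, -0.10 for II and -0.16 for IV, and centring -0.24 for nuclear, -0.15 for I, -0.35 for II, -0.24 for III, -0.36 for IV and -0.28 for V. Scaling to summed CPM gave 0.13, 0.21, 0.02, 0.12, 0 and 0.09 in the same order, and to summed nuclear CPM 0.12, 0.21, 0.01, 0.12, 0 and 0.09. Complex IV was -0.13 and -0.09 with filters at log2 CPM 1 and 3, and with a tumor or that library left out I was -0.06 to 0.05 and IV -0.28 to -0.15. As a ratio to nuclear reads the mtDNA genes of GAL1- cells came to 1.06%, and to 1.05% with rRNA left out. Of the single-gene values of the 62 pairs followed, 750 kept their direction and side of the threshold, 166 lost a call, 19 gained one and 30 changed sign.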
